A study of Mus musculus with 9 samples.

Results

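The 32 astrocyte identity genes described here are transcripts by which astrocytes are commonly recognised in mouse brain, and they were taken from a table of 28991 genes by gene symbol. Every listed symbol matched 1 row, and the rule uses no measured value. RNA-seq libraries came from the mesencephalon (midbrain) of C57BL/6 mice in 3 groups of 3 mice: MPTP together with PF4, MPTP alone, and saline as control. MPTP was given intraperitoneally for 7 days and PF4 intravenously at intervals of 3 days. No genetic change is named in the labels, and both treated groups carry the MPTP treatment, so each of them is set against the same control mice. MPTP is a toxin that damages dopaminergic neurons and is used to model Parkinson's disease, and PF4 (platelet factor 4) is a chemokine stored in platelets.

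Astrocytes take up glutamate and potassium released by neurons, convert glutamate to glutamine, couple to each other through gap junctions and line blood vessels with endfeet rich in water channels. In the brain, MPTP itself is converted to its toxic product mainly by monoamine oxidase B, an enzyme of astrocytes, and the product is then carried into dopaminergic neurons by the dopamine transporter. Astrocytes also differ between brain regions, so the level of an astrocyte transcript in whole tissue depends on the region sampled as well as on the state of the cells. In bulk tissue, fewer astrocytes and less RNA per astrocyte cannot be told apart.

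The libraries held 32216850 to 36039211 counts, and the 32 genes took 0.833% to 1.00% of them. All 32 genes passed the filter on low counts, and the lowest count of any of them in any library was 353. Transcripts that mark brain regions split the libraries across the groups. The dopamine transporter gene Slc6a3, which defines midbrain dopaminergic neurons, was at 0.34, 101 and 0.403 CPM (counts scaled to the library total with TMM factors) in MPTP+PF4 libraries 1 to 3, at 0.0546, 0.951 and 0.124 CPM in MPTP libraries and at 0.392, 571 and 523 CPM in control libraries. Drd1, a dopamine receptor gene of striatal neurons, was at 219, 7.69 and 399.5 CPM in MPTP+PF4 libraries, 169, 44.2 and 324 CPM in MPTP libraries and 158, 4.02 and 4.77 CPM in control libraries. Slc6a3 was therefore near 0 in 6 of the 9 libraries labelled as midbrain, the library of control mouse 1 among them, and those 6 libraries had the higher Drd1 levels. Values without the other 3 libraries (control 2, control 3 and MPTP+PF4 2) are given in each comparison below, and what part this split has in the results was not tested.

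Sequences before the RefSeq starts of 4 genes are shown because these genes had the largest differences between groups or between libraries described below. Each is the 250 bases before the RefSeq gene start in build GRCm38.p6, read 5′ to 3′ on the strand of the gene: Aldh1l1 at chr6:90550543-90550792 (plus strand), S100b at chr10:76253586-76253835 (plus strand), Slc1a3 at chr15:8710808-8711057 (minus strand) and Agt at chr8:124569707-124569956 (minus strand). For Aldh1l1 the RefSeq start lies downstream of the start that GENCODE gives the gene, so this window lies inside the gene as GENCODE places it. Capitals mark matches to either of 2 motifs, the half-site TTGGCA of nuclear factor I and the STAT motif TTCNNNGAA; the SOX core ACAATG was searched too and had no match in these 4.
Aldh1l1: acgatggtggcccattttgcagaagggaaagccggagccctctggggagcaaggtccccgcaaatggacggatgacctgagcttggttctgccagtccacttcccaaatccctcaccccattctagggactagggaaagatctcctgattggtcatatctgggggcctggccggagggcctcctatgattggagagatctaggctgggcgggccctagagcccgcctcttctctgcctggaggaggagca
S100b: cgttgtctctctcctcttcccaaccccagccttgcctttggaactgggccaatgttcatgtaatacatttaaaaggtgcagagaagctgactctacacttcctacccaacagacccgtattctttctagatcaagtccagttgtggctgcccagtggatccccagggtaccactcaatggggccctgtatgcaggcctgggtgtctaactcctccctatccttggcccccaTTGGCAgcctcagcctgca
Slc1a3: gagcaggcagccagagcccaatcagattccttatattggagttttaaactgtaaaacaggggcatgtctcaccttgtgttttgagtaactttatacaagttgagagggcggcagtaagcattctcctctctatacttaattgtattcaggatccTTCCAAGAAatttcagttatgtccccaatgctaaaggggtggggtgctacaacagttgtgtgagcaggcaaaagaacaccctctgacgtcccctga
Agt: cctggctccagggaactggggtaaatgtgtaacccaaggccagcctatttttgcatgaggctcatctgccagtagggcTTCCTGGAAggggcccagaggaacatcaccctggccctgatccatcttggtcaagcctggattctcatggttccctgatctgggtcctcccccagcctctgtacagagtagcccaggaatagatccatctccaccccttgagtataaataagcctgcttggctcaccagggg
Both strands were searched and no match overlapped another. The match in S100b began 19 bases before the gene start, that in Slc1a3 96 bases before it and that in Agt 172 bases before it. Of 32851 promoter windows of this length in the RefSeq table, 12.3% held TTGGCA, 10.7% held ACAATG and 7.02% held TTCNNNGAA. Among the 29 astrocyte identity genes with a window, TTGGCA was found in 3, ACAATG in 1 and TTCNNNGAA in 7. Aqp4, Clu and Sox9 had no entry. A match describes these letters only and is not evidence of binding.

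Per length of transcript, the genes spanned a wide range of levels. By the authors' FPKM (fragments scaled for transcript length and library size), averaged over the 9 libraries, Glul (glutamine synthetase, which makes glutamine from glutamate) led with 593 FPKM. Clu, which encodes the secreted chaperone clusterin, averaged 463 FPKM and Aldoc, the brain aldolase of glycolysis, 399 FPKM. Slc1a2 and Slc1a3, the glial glutamate transporters GLT-1 and GLAST, averaged 163 and 112 FPKM, and the calcium-binding protein gene S100b 101 FPKM. Each of these neighbours overlapped the next in its range over libraries. At the low end were Prodh (proline dehydrogenase) at 9.58 FPKM, the transcription factor gene Sox9 at 6.25 FPKM and the phospholipase C gene Plcd4 at 5.27 FPKM. The highest average was 113 times the lowest; 6 genes averaged 100 FPKM or more and 8 less than 20 FPKM.

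**Figure D1:**
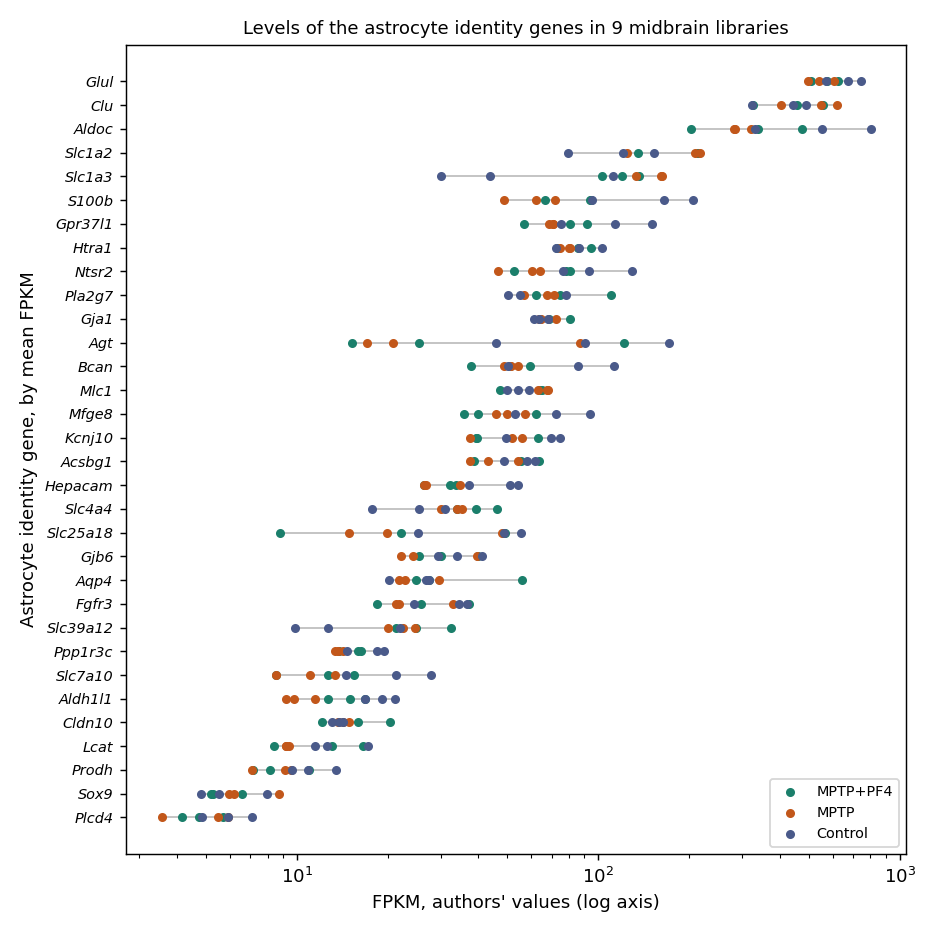
Authors' FPKM (log axis) of the 32 astrocyte identity genes in the 9 libraries, with genes ordered by their mean; each point is 1 library coloured by group, and the grey line spans the lowest to the highest library. Glul, Clu and Aldoc lie highest, Plcd4 lowest, and Agt and Slc25a18 have wide spans.

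The spread over libraries also differed between genes. The ratio of the highest to the lowest CPM was under 2 for 12 genes, between 2 and 4 for 16 and at least 4 for 4, with a median of 2.4. Mlc1, which encodes an endfoot membrane protein, and Gja1, the main astrocyte connexin, varied least, with ratios of 1.28 and 1.33. Agt, the precursor of angiotensin, varied most, with a ratio of 11.1. The mitochondrial glutamate carrier gene Slc25a18 followed at 6.06, Slc1a3 at 4.9 and S100b at 4.7.

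Agt (chr8:124556534-124569706, minus strand, in GRCm38, as for all gene positions below) was at 51.6, 232 and 32.9 CPM in MPTP+PF4 libraries, at 32.2, 156 and 42.9 CPM in MPTP libraries and at 89.7, 358 and 176 CPM in control libraries. Slc25a18 was at 45.7, 93.5 and 19.1 CPM in MPTP+PF4 libraries, at 38.0, 87.3 and 30.8 CPM in MPTP libraries and at 49.9, 116 and 96.2 CPM in control libraries. In each group the library numbered 2 was the highest for both genes, and the groups overlapped. As background, Agt is higher in astrocytes of the midbrain and hindbrain than of the forebrain, while Mfge8, a secreted glycoprotein that bridges cells to phagocytes, is higher in forebrain astrocytes. Mfge8 was at 134, 80.4 and 82.6 CPM in MPTP+PF4 libraries, at 114, 87.5 and 109 CPM in MPTP libraries and at 111, 160 and 196 CPM in control libraries. Control 2 and control 3 were highest, and the groups overlapped. The ratio of Agt to Mfge8 in FPKM was 0.41, 3.07 and 0.425 in MPTP+PF4 libraries, 0.3, 1.9 and 0.418 in MPTP libraries and 0.863, 2.38 and 0.96 in control libraries. This ratio was above 1 in 3 libraries, numbered 2 in each group, and below 1 in the other 6. The ratio of Slc1a2 to Slc1a3 in FPKM was 1.57, 1.32 and 1.78 in MPTP+PF4 libraries, 1.33, 0.77 and 1.57 in MPTP libraries and 1.37, 2.63 and 2.74 in control libraries. It stood apart in control 2 and control 3, which also held the most Slc6a3.

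Control 2 was the highest of the 9 libraries for 19 of the 32 genes, MPTP+PF4 2 for 5 and control 3 for 3. MPTP 2 was the lowest for 8 genes and MPTP+PF4 3 for 6. Relative to each gene's own mean, the median deviation over the 32 genes (log2) was 0.09, 0.09 and -0.23 in MPTP+PF4 libraries, -0.11, -0.23 and -0.18 in MPTP libraries and -0.04, 0.47 and 0.18 in control libraries. MPTP+PF4 3 was the lowest library of its group for 25 genes. Control 1 was the lowest control for 21 genes and lay within the range of the MPTP libraries for 18, against 3 genes for control 2 and 5 for control 3.

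**Figure D2:**
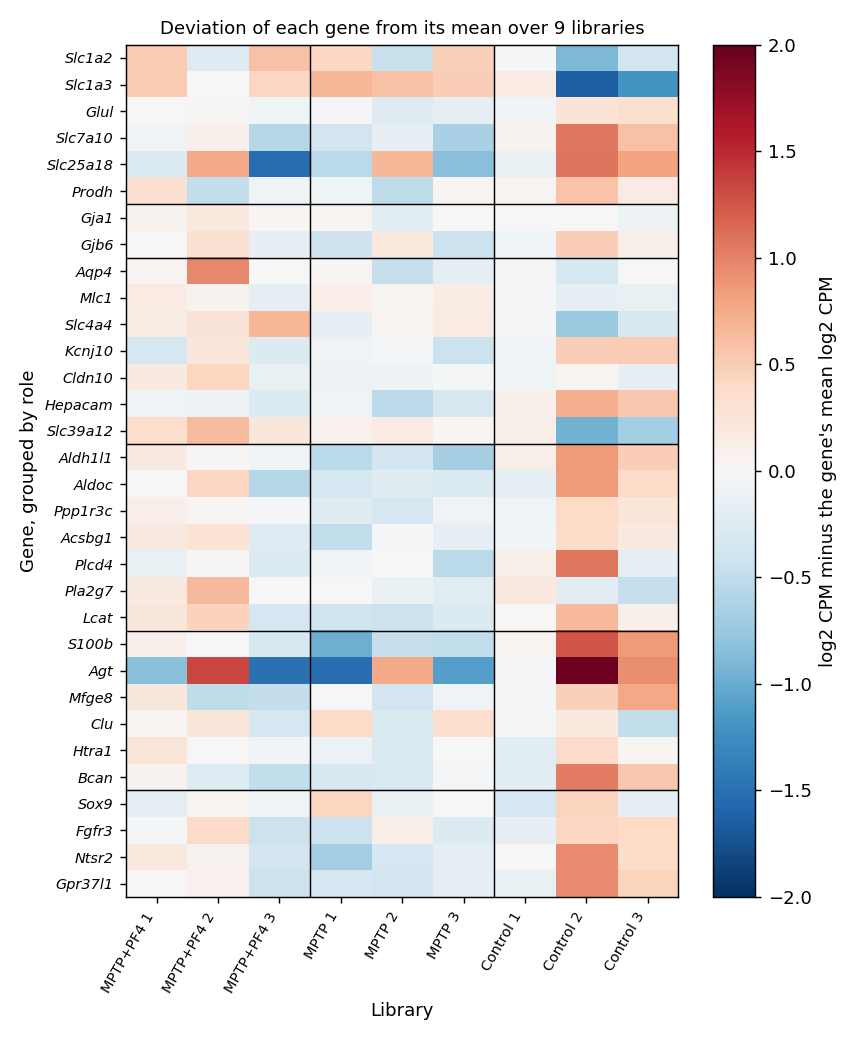
Deviation of log2 CPM from each gene's mean over the 9 libraries (colour scale from -2 to 2), with the 32 genes in rows grouped by role and the libraries in columns by group. Control 2 is above the mean in most rows, while Slc1a2, Slc1a3, Slc4a4 and Slc39a12 are below it there.

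MPTP was compared with saline to see how astrocyte transcripts stood after the toxin. Most of the 32 genes were lower in MPTP libraries: 24 had a fold change below 0, against 49.1% of all 17285 genes tested, and their median log2 fold change was -0.42, against 0.01 over all genes. None passed the test (edgeR's quasi-likelihood test, Benjamini-Hochberg adjusted p under 0.05; 0% of all genes tested were called), and the smallest adjusted p was 0.261. At an unadjusted p under 0.05, 10 genes were lower and 1 was higher, against 12.9% and 5.32% of all genes. The groups did not overlap for 9 genes that were lower and 2 that were higher, against 8.73% and 9.44% of all genes. DESeq2 called 3 of the 32 lower and 0 higher, against 1.38% and 0.307% of all genes. With limma voom and sample weights 18 were called lower and 5 higher, but that fit called 25.9% of all genes in each direction. The authors' deposited table calls 4 of the 32 down in MPTP (Aldh1l1, S100b, Agt and Slc7a10) and Slc1a3 up, against 5.84% and 2.12% of the genes that carry a call there. Those calls are headed DESeq2 with a P value of 0.05 and a fold change of 2, here and in the comparisons below. They are therefore not at the threshold used for the calls above, and the heading does not say whether the P value is adjusted.

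Among the enzymes, Aldh1l1 (chr6:90486427-90600203, plus strand), a folate enzyme widely used to mark astrocytes, was at 33.9, 37.7 and 31.1 CPM in MPTP libraries, against 53.5, 88.2 and 68.9 CPM in control libraries. Every MPTP library was below every control library. Its log2 fold change was -1.04 (SE 0.202; edgeR adjusted p = 0.261), the smallest unadjusted p of the 32, and DESeq2 gave -1.03 with an adjusted p of 0.0035. Aldoc averaged 735 ± 29.8 CPM in MPTP libraries and 1204 ± 416 CPM in control libraries (SD, n = 3 each). Lcat, which esterifies cholesterol in lipoproteins, averaged 12.6 ± 0.707 CPM in MPTP libraries and 19.6 ± 5.03 CPM in control libraries. Neither gene's groups overlapped, and control 2 was the highest library for both. Ppp1r3c, a regulator of glycogen synthesis, the fatty acyl-CoA ligase gene Acsbg1 and Plcd4 had log2 fold changes of -0.42, -0.40 and -0.62 with overlapping groups. Pla2g7, which encodes a phospholipase that breaks down platelet-activating factor, was at 0.02. Thus 4 of the 7 enzyme genes were lower at an unadjusted p under 0.05 in edgeR, against 12.9% of all genes, and the median of the 7 was -0.62.

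The secreted and matrix genes were led by S100b (chr10:76253853-76261159, plus strand), which was at 71.8, 102 and 100 CPM in MPTP libraries, against 146, 337 and 253 CPM in control libraries. The groups did not overlap, and control 1 lay nearest the MPTP libraries. Its log2 fold change was -1.44 (SE 0.3; edgeR adjusted p = 0.261), and DESeq2 gave -1.42 with an adjusted p of 0.00438. S100b is also made by mature oligodendrocytes, whose 8 listed markers summed to 7078 to 14856 CPM in MPTP libraries and 15501 to 26203 CPM in control libraries. All 8 of those markers were lower at an unadjusted p under 0.05 in edgeR, against 12.9% of all genes, and none was at 0 in any library. Their median log2 fold change was -1.1, and -0.59 without control 2, control 3 and MPTP+PF4 2. Their part in the S100b value was not tested. Bcan, which encodes the matrix proteoglycan brevican, had a log2 fold change of -0.77 (SE 0.298), Mfge8 -0.60 (SE 0.269), Htra1, a secreted protease, -0.23 (SE 0.186) and Clu 0.25 (SE 0.262), all with overlapping groups. Agt had the fold change second in size among the 32, -1.43, with a SE of 0.879, since its libraries overlapped as given above.

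The glutamate genes, with the amino acid transporter gene Slc7a10 placed among them, lay on both sides of 0. Slc1a3 (chr15:8634124-8710764, minus strand) was at 677, 643 and 601 CPM in MPTP libraries, against 482, 138 and 188 CPM in control libraries. Every MPTP library was above every control library, and control 1 was far above the other 2 controls. The log2 fold change was 1.24 (SE 0.415; edgeR adjusted p = 0.261). Slc1a2 (chr2:102658659-102790784, plus strand) was at 2489, 1372 and 2609.8 CPM in MPTP libraries, against 1839.7, 1006 and 1434 CPM in control libraries. The groups overlapped, with MPTP 2 below control 1 and control 3, and the log2 fold change was 0.58 (SE 0.334; edgeR adjusted p = 0.327). Slc7a10, the astrocyte transporter for serine and other small neutral amino acids, was at 21.6, 24.9 and 17.9 CPM in MPTP libraries, against 29.3, 58.0 and 42.1 CPM in control libraries. Its groups did not overlap, and its log2 fold change was -1.01 (SE 0.285; edgeR adjusted p = 0.261). Glul averaged 1539 ± 133 CPM in MPTP libraries and 1956 ± 272 CPM in control libraries (SD, n = 3 each), with overlap. Prodh averaged 19.6 ± 3.69 CPM in MPTP libraries and 26.9 ± 5.28 CPM in control libraries, without overlap. Its separation was slight, with control 1 at 23.0 CPM and MPTP 3 at 22.6 CPM. Slc25a18 had a log2 fold change of -0.75 with a SE of 0.603.

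Of the ion, water and membrane genes, Hepacam (chr9:37367351-37386575, plus strand), the adhesion partner that holds Mlc1 at astrocyte contacts, was at 115, 84.0 and 97.1 CPM in MPTP libraries, against 129, 199 and 175 CPM in control libraries. The groups did not overlap, though MPTP 1 and control 1 lay close together. Its log2 fold change was -0.77 (SE 0.2; edgeR adjusted p = 0.261), and DESeq2 gave -0.76 with an adjusted p of 0.0442. Mlc1 itself averaged 186 ± 5.9 CPM in MPTP libraries and 159 ± 9.6 CPM in control libraries (SD, n = 3 each), without overlap, and its log2 fold change was 0.21 (SE 0.147). Aqp4, the endfoot water channel, was at 148, 104 and 125 CPM in MPTP libraries, against 141, 112 and 143 CPM in control libraries, which overlapped throughout. Kcnj10, the potassium channel Kir4.1, had a log2 fold change of -0.50, the bicarbonate transporter gene Slc4a4 0.35, the zinc transporter gene Slc39a12 0.52 and the claudin gene Cldn10 -0.02, each with overlapping groups. The median of these 7 was -0.02.

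Of the gap junction genes, Gja1 (chr10:56377330-56402513, plus strand) was at 221, 187 and 214 CPM in MPTP libraries, against 216, 214 and 202 CPM in control libraries. These values interleaved, and its log2 fold change was -0.03 (SE 0.14). Gjb6, the second astrocyte connexin, had -0.39 (SE 0.243). Among receptors and factors, Ntsr2, a neurotensin receptor gene, was at 65.5, 83.7 and 93.1 CPM in MPTP libraries, against 107, 204 and 137 CPM in control libraries. Its groups did not overlap, and its log2 fold change was -0.90 (SE 0.267; edgeR adjusted p = 0.261). The orphan receptor gene Gpr37l1 averaged 160.4 ± 11.6 CPM in MPTP libraries and 274 ± 100.3 CPM in control libraries (SD, n = 3 each), also without overlap. Here too the separation was slight, with control 1 at 177 CPM and MPTP 3 at 174 CPM. Fgfr3, a fibroblast growth factor receptor gene, had a log2 fold change of -0.42 and Sox9 0.10, both with overlap.

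**Figure D3:**
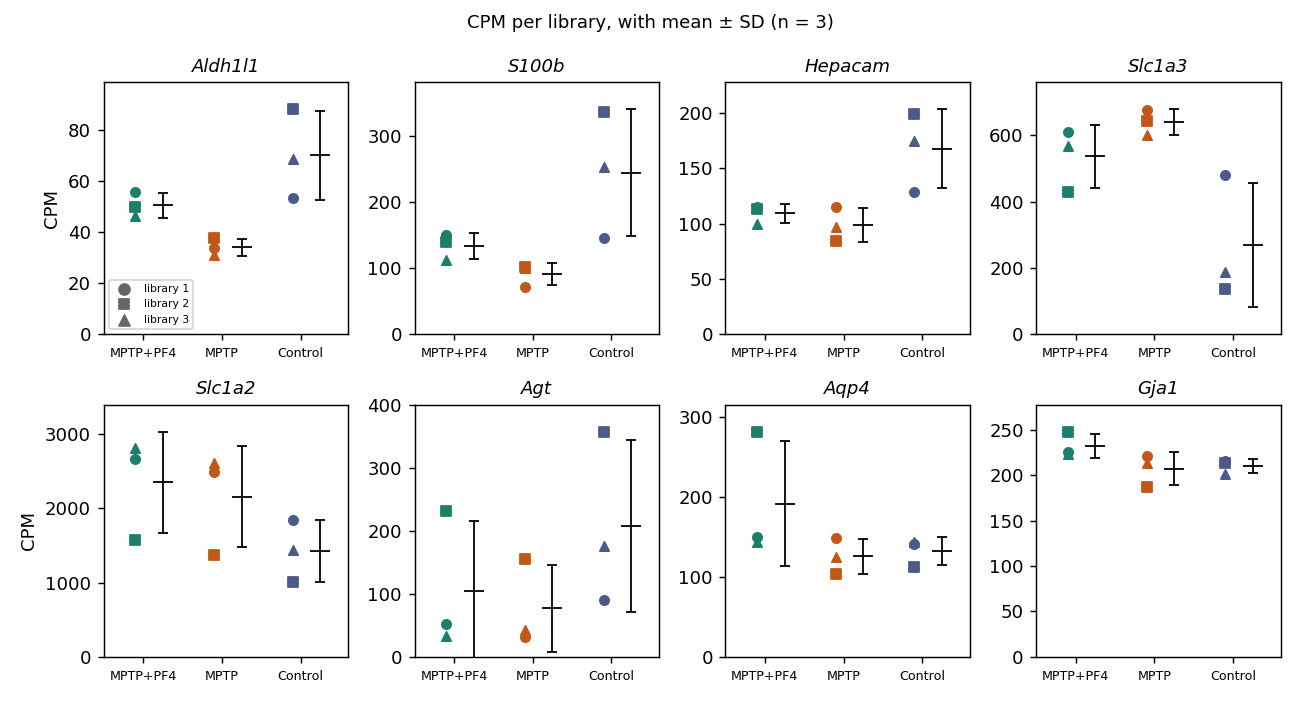
CPM (linear axis from 0) of 8 astrocyte identity genes in each library, with symbols for library number and bars for mean ± SD over 3 mice per group. Numbers are not stated to pair mice between groups, and the bar of Agt in MPTP+PF4 is cut at 0. Aldh1l1, S100b and Hepacam are lower and Slc1a3 higher in every MPTP library than in any control library, and MPTP+PF4 2 stands apart for Aqp4.

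These differences depended on which control mice were compared. Without control 1, edgeR called 9 of the 32 genes lower and 2 higher (Slc1a3 and Slc39a12) in MPTP libraries, and 14.0% and 11.9% of all genes were called in those directions. Aldh1l1 then had a log2 fold change of -1.20 (adjusted p = 0.00761), S100b -1.70 (adjusted p = 0.00761) and Slc1a3 1.96 (adjusted p = 0.00761). Without control 1 and MPTP+PF4 2 together, 12 of the 32 were called lower and 2 higher, with 14.9% and 17.1% of all genes. Leaving out control 2, control 3 and MPTP+PF4 2 makes control 1 the only control. That fit assumes that control 1 varies like the other groups, so only its effect sizes are given here. The median log2 fold change of the 32 was then -0.10. Aldh1l1 was at -0.65 (SE 0.203), S100b at -0.69 (SE 0.265), Hepacam at -0.39 (SE 0.228) and Slc1a3 at 0.40 (SE 0.214), while Agt was at -0.22. Among the 3 MPTP libraries and control 1, the order of Aldh1l1 and S100b was kept. That was fixed by every control lying above each MPTP library for both, and such an order is kept for every gene whose groups did not overlap.

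**Figure D4:**
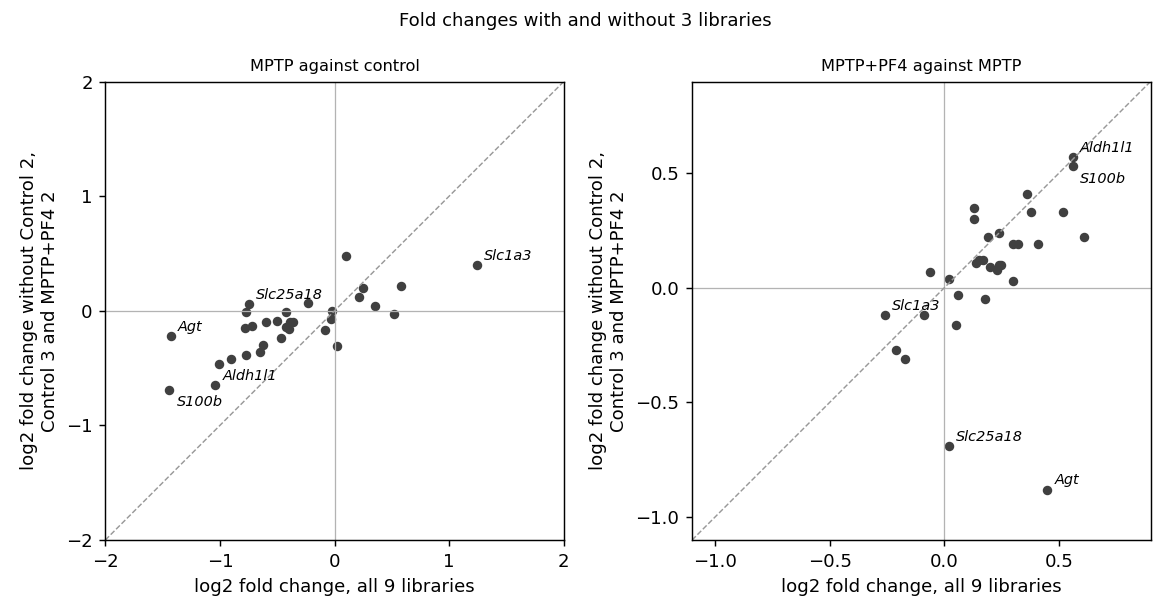
Log2 fold changes of the 32 genes with all 9 libraries (horizontal axis) and without control 2, control 3 and MPTP+PF4 2 (vertical axis), for MPTP against control (left) and MPTP+PF4 against MPTP (right); each point is a gene and the dashed line marks equal values. Slc1a3 lies at 1.24 against 0.40 on the left, and Agt at 0.45 against -0.88 on the right.

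MPTP with PF4 was compared with MPTP alone to see how the same transcripts stood under PF4. Most genes were higher in MPTP+PF4 libraries: 27 of the 32 genes had a fold change above 0 and 5 below it, against 53.4% and 46.6% of all genes, and their median log2 fold change was 0.19, against 0.02 over all genes. Without MPTP+PF4 2 that median was 0.11, with 23 genes above 0 and 9 below it, and without MPTP+PF4 3 it was 0.30, with 28 above and 4 below. It was also 0.11 without control 2, control 3 and MPTP+PF4 2, with 23 above and 9 below. None passed the test (edgeR, Benjamini-Hochberg adjusted p of 1 for each; 0% of all genes were called). At an unadjusted p under 0.05, 1 gene was higher and 0 lower, against 0.648% and 1.36% of all genes. Groups did not overlap for 5 genes that were higher (Aldh1l1, S100b, Ppp1r3c, Slc39a12 and Gja1) and 0 that were lower, against 2.89% and 4.11% of all genes. DESeq2 called 0.0174% of all genes higher and 0.0752% lower and limma voom 0.0116% lower, with 0 of the 32 among them. The authors' deposited table calls 0 of the 32 in this comparison, against 0.205% of the genes with a call there up and 1.20% down.

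Aldh1l1 was at 55.9, 49.8 and 46.3 CPM in MPTP+PF4 libraries, against 33.9, 37.7 and 31.1 CPM in MPTP libraries. Every MPTP+PF4 library was above every MPTP library, and the log2 fold change was 0.56 (SE 0.201; edgeR adjusted p = 1). S100b was at 151, 139.7 and 113 CPM in MPTP+PF4 libraries, against 71.8, 102 and 100 CPM in MPTP libraries. Its groups did not overlap either, and its log2 fold change was 0.56 (SE 0.295). Without control 2, control 3 and MPTP+PF4 2, the fold changes were 0.57 for Aldh1l1 and 0.53 for S100b. The markers of mature oligodendrocytes, which also make S100b, summed to 12767 to 13820 CPM in MPTP+PF4 libraries and 7078 to 14856 CPM in MPTP libraries. All 8 had fold changes above 0, against 53.4% of all genes. Their median log2 fold change was 0.34, and 0.37 without control 2, control 3 and MPTP+PF4 2. Their part in the S100b value was not tested.

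Aqp4 was at 149, 281 and 143 CPM in MPTP+PF4 libraries, against 148, 104 and 125 CPM in MPTP libraries. MPTP+PF4 2 alone was far above the rest, the other libraries overlapped, and the log2 fold change of 0.61 (SE 0.282) became 0.22 (SE 0.186) without control 2, control 3 and MPTP+PF4 2. Lcat was at 18.9, 22.3 and 12.8 CPM in MPTP+PF4 libraries, against 12.3, 12 and 13.4 CPM in MPTP libraries. Its groups overlapped in MPTP+PF4 3, and the log2 fold change was 0.52 (SE 0.251). Pla2g7 was at 167, 232 and 148 CPM in MPTP+PF4 libraries, against 149, 135 and 128 CPM in MPTP libraries, with MPTP+PF4 2 again highest. Its log2 fold change of 0.41 (SE 0.227) became 0.19 (SE 0.156) without those 3 libraries. Aldh1l1, Aqp4, Lcat, S100b and Pla2g7 had the 5 smallest unadjusted p among the 32, and each had an edgeR adjusted p of 1.

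By role, all 7 enzyme genes had fold changes above 0, with a median log2 of 0.30. The 7 ion, water and membrane genes had a median of 0.25, and Mlc1, at -0.09, was the only one of them below 0. Gja1 was at 226, 248 and 223 CPM in MPTP+PF4 libraries, against 221, 187 and 214 CPM in MPTP libraries, close but without overlap. The 6 genes of the glutamate group, Slc7a10 among them, had a median of 0.13. Slc1a3 was at 610.4, 429.7 and 569 CPM in MPTP+PF4 libraries, against 677, 643 and 601 CPM in MPTP libraries. Slc1a2 was at 2666, 1569 and 2815 CPM in MPTP+PF4 libraries, against 2489, 1372 and 2609.8 CPM in MPTP libraries. Both overlapped, with log2 fold changes of -0.26 (SE 0.409) for Slc1a3 and 0.13 (SE 0.333) for Slc1a2. The secreted and matrix genes had a median of 0.10, and the receptor and factor genes 0.19. Agt was at 0.45 (SE 0.864) with all libraries and at -0.88 without MPTP+PF4 2, so its direction turned without that library, as did that of Slc25a18, at 0.02 and -0.69.

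**Figure D5:**
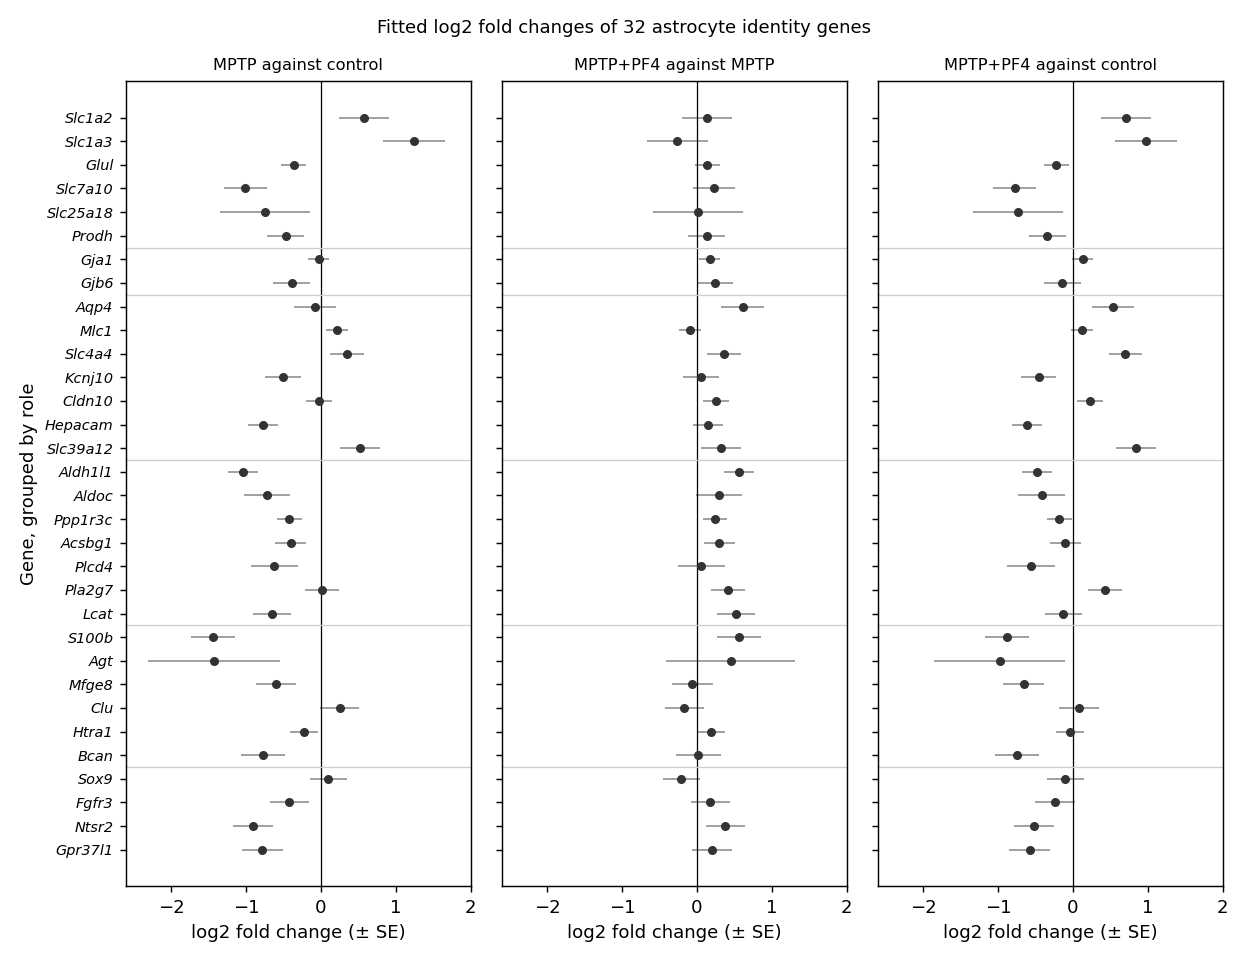
Log2 fold changes with SE bars (edgeR, all 9 libraries) of the 32 genes grouped by role, for MPTP against control, MPTP+PF4 against MPTP and MPTP+PF4 against control. In the middle panel 27 of 32 points lie to the right of 0, in the left panel 24 lie to the left of it.

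MPTP with PF4 was also set against saline; this shares the MPTP+PF4 mice with one of the comparisons above and the control mice with the other, so its values are not independent of them. Of the 32 genes, 22 had a fold change below 0, against 50.2% of all genes, and the median log2 fold change was -0.20, against 0.0 over all genes. Without control 2 that median was -0.08, with 15 genes above 0 and 17 below it, and without MPTP+PF4 3 it was -0.12. Without control 1 it was -0.31. None passed the test (edgeR, smallest Benjamini-Hochberg adjusted p 0.268; 0% of all genes were called). At an unadjusted p under 0.05, 3 genes were higher and 6 lower, against 6.25% and 12.1% of all genes. Groups did not overlap for 4 genes that were higher (Slc39a12, Slc4a4, Aqp4 and Gja1) and for Hepacam, which was lower, against 5.87% and 6.51% of all genes. For Aqp4 the separation was slight: MPTP+PF4 3 and control 3 both rounded to 143 CPM, and MPTP+PF4 2 was at 281 CPM. Its log2 fold change of 0.53 became 0.05 without control 2, control 3 and MPTP+PF4 2. DESeq2 called 0.0289% of all genes in each direction with 0 of the 32 among them. With sample weights, limma voom called 8 of the 32 higher and 13 lower with 26.8% and 27.5% of all genes. The authors' deposited table, whose call here runs control over MPTP+PF4, calls 0 of the 32, against 4.77% of the genes with a call there up and 1.65% down.

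Transporters led the higher side. Slc39a12 (chr2:14388316-14494977, plus strand) was at 71.6, 87.0 and 65.2 CPM in MPTP+PF4 libraries, against 60.7, 28.9 and 35.0 CPM in control libraries. Slc4a4 (chr5:88886818-89239653, plus strand) was at 288, 311 and 413 CPM in MPTP+PF4 libraries, against 254, 155 and 208 CPM in control libraries. Both were above every control, with control 1 the nearest, and their log2 fold changes were 0.84 (SE 0.266) and 0.70 (SE 0.224), each with an edgeR adjusted p of 0.268. On the lower side, Hepacam was at 115, 113 and 99.8 CPM in MPTP+PF4 libraries, against 129, 199 and 175 CPM in control libraries. All 3 MPTP+PF4 libraries were below all controls, and the log2 fold change was -0.62 (SE 0.2; edgeR adjusted p = 0.268). S100b had a log2 fold change of -0.88 (SE 0.296) and Slc7a10 of -0.78 (SE 0.284), both overlapping in control 1 and both with an edgeR adjusted p of 0.268.

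Aldh1l1 averaged 50.7 ± 4.82 CPM in MPTP+PF4 libraries and 70.2 ± 17.4 CPM in control libraries (SD, n = 3 each). MPTP+PF4 1 was above control 1, and the fold change was -0.48 on the log2 scale (SE 0.2). Slc1a3 was at 0.98 (SE 0.413) and overlapped in control 1. Without control 1, edgeR called 3 of the 32 genes higher (Slc1a3, Slc4a4 and Slc39a12) and 7 lower, and 12.4% and 13.2% of all genes were called in those directions. Without control 1 and MPTP+PF4 2 together, 4 were called higher and 9 lower, with 18.2% and 15.9% of all genes. Leaving out control 2, control 3 and MPTP+PF4 2 again makes control 1 the only control, so only effect sizes are given. The median of the 32 was then -0.02, with Slc39a12 at 0.16, Slc4a4 at 0.45, Hepacam at -0.27 and S100b at -0.16.

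A list of 38 further genes enriched in astrocytes was read beside the 32, and none of them passed the edgeR test in any comparison. In MPTP against control, 4 were higher and 7 lower at an unadjusted p under 0.05, against 5.32% and 12.9% of all genes, with a median log2 fold change of -0.25, against 0.01 over all genes. Paqr6, a membrane progestin receptor gene, had the smallest p and was at 3.71, 7.93 and 4.07 CPM in MPTP libraries, against 7.66, 50.9 and 31.3 CPM in control libraries. Control 1 lay within the MPTP range, and the log2 fold change was -2.52 (SE 0.665; edgeR adjusted p = 0.261). Slc6a9, the glial glycine transporter gene, was at -1.33 (SE 0.384), and the endothelin receptor gene Ednrb at 0.72 (SE 0.235). In MPTP+PF4 against MPTP, 27 of the 38 were above 0, against 53.4% of all genes, with a median of 0.14, against 0.02. None had an unadjusted p under 0.05; the smallest were those of the sulphate-activating enzyme gene Papss2 at 0.48, the urea transporter gene Slc14a1 at 0.39 and Fam107a at -0.39. In MPTP+PF4 against control, 4 were higher and 4 lower at an unadjusted p under 0.05, against 6.25% and 12.1% of all genes, with a median of -0.02, against 0.0. The smallest p-values were those of Paqr6 at -1.80, Ttyh1, a chloride channel family gene, at 0.50 and Tst, a mitochondrial sulphur transferase gene, at -1.02. The medians of the 38 without control 2, control 3 and MPTP+PF4 2 were 0.04 in MPTP against control, 0.00 in MPTP+PF4 against MPTP and 0.00 in MPTP+PF4 against control. In MPTP against control, Paqr6 was then at -0.55, Slc6a9 at -0.55 and Ednrb at 0.31. In MPTP+PF4 against MPTP, Papss2 was at 0.75, Slc14a1 at 0.00 and Fam107a at -0.21. In MPTP+PF4 against control, Paqr6 was at -0.25, Ttyh1 at 0.22 and Tst at -0.12.

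Genes of reactive astrocytes, 11 of 12 of which were tested (Timp1 was too low), showed no call either. Gfap, the intermediate filament of reactive astrocytes, was at 116, 338 and 70.4 CPM in MPTP+PF4 libraries, 226, 81.6 and 169 CPM in MPTP libraries and 108, 307 and 189 CPM in control libraries. The groups overlapped, and the highest and the lowest library both belonged to MPTP+PF4. Nes, which encodes nestin, had the smallest p in MPTP against control, with a log2 fold change of -0.86 (SE 0.271; edgeR adjusted p = 0.261), and was lower at an unadjusted p under 0.05 in MPTP+PF4 against control too, at -0.83 (SE 0.271). The median of the 11 was 0.08 in MPTP against control, 0.03 in MPTP+PF4 against MPTP and -0.12 in MPTP+PF4 against control. Those medians without control 2, control 3 and MPTP+PF4 2 were 0.11 in MPTP against control, -0.77 in MPTP+PF4 against MPTP and -0.35 in MPTP+PF4 against control. In MPTP+PF4 against MPTP, 3 of the 11 were then above 0 and 8 below it. Gfap turned from -0.35 to 0.55 (SE 0.59) in MPTP against control and from 0.15 to -0.77 (SE 0.462) in MPTP+PF4 against MPTP. It was at -0.21 and -0.22 in MPTP+PF4 against control. Nes was then at -0.41 in MPTP against control and -0.35 in MPTP+PF4 against control.

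Levels of other cell types' markers stood beside these values. The 6 ependymal markers, genes of ciliated cells lining the ventricles, summed to 11.4 to 17.0 CPM in MPTP+PF4 libraries, 24.3 to 70.6 CPM in MPTP libraries and 13.1 to 31.5 CPM in control libraries, and none was at 0 in any library. All 6 were lower in MPTP+PF4 than in MPTP libraries at an unadjusted p under 0.05 in edgeR, against 1.36% of all genes, with a median log2 fold change of -1.92. All 6 were above 0 in MPTP against control, with a median of 1.31, and 2 of them were higher at an unadjusted p under 0.05, against 5.32% of all genes. None passed after adjustment in any comparison. The ependymal medians without control 2, control 3 and MPTP+PF4 2 were 0.64 in MPTP against control and -2.02 in MPTP+PF4 against MPTP. The 7 microglia markers summed to 401 to 529.9 CPM in MPTP+PF4 libraries, 288 to 486 CPM in MPTP libraries and 187 to 372 CPM in control libraries. The 6 endothelial markers summed to 281 to 314 CPM in MPTP+PF4 libraries, 214 to 281 CPM in MPTP libraries and 303 to 486 CPM in control libraries. The 10 neuron markers summed to 5882 to 6759 CPM in MPTP+PF4 libraries, 5795 to 6139 CPM in MPTP libraries and 6015 to 6439 CPM in control libraries. The 5 dopaminergic markers summed to 36.3, 299.5 and 42.6 CPM in MPTP+PF4 libraries, 38.3, 66.5 and 37.5 CPM in MPTP libraries and 38.6, 1224 and 1153 CPM in control libraries, and 1 of the 5 was at 0 in a library. The 6 striatal markers summed to 3445, 121 and 4811 CPM in MPTP+PF4 libraries, 2251, 475 and 4863 CPM in MPTP libraries and 2293, 141 and 114 CPM in control libraries. The 32 astrocyte genes summed to 9017 to 9924 CPM in MPTP+PF4 libraries, 7729 to 9303 CPM in MPTP libraries and 8556 to 10208 CPM in control libraries, which overlapped. The part of these cell types in the astrocyte values was not tested.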

How the data were processed

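RNA from the midbrain of 9 mice, 3 per group, was sequenced as mRNA libraries, per the labels. The deposited table gives read counts and FPKM for each gene and library, per the file headers, which also name DESeq2 for the authors' calls in words. The call for MPTP+PF4 and control runs control over MPTP+PF4. The submitters' processing notes name the build mm9; the aligner, the counting program and its strand setting are not given in the sources used here, so reads of antisense genes cannot be told apart. The table has 29001 lines; 10 were broken and not used. The other 28991 are 22036 Ensembl genes and 6955 other loci. Libraries of a group differed by more than sampling noise, with a chi-square of at least 51.3 per degree of freedom.

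The main test was edgeR's quasi-likelihood test (version 4.0.16, R 4.3.3; robust, TMM factors, filterByExpr, all 9 libraries in 1 fit on the group, Benjamini-Hochberg adjustment over 17285 genes, threshold 0.05); the common biological coefficient of variation was 0.394. A fold change is the first-named group over the second, on the log2 scale. A p-value sets the difference between groups against the spread between mice within groups. Alternatives were DESeq2 1.42.0, voom in limma 3.58.1 with sample weights, other scalings and filters, the replicate number as a block, and libraries left out. The fits were tested on simulated data. Between genes, levels were compared by the authors' FPKM only.

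All 32 genes are named; full statistics are given for the 5 with the smallest unadjusted p in each comparison, and values per library also for Slc1a2, Slc1a3, Aqp4, Gja1, Aldh1l1, Agt, Mfge8 and S100b. The genes, lists and left-out libraries were chosen with earlier results of these data known. Gene positions are from GENCODE on GRCm38, matched by identifier; promoter sequences are from RefSeq on GRCm38.p6, where 29 of 32 genes matched by symbol. Neither is the build the notes name, and no position was converted.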

Additional observations from a re-analysis of the deposited data

How the results depend on the processing

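With all 9 libraries, 0 genes passed in each comparison with edgeR. Other scalings, filters, fits on 6 libraries and the replicate block also gave 0 genes. The labels do not state that the numbers pair the mice. Between groups, deviations of same-numbered libraries from their group means correlated at -0.291 (control 3 and MPTP+PF4 3) to 0.519 (MPTP 2 and MPTP+PF4 2). For differently numbered libraries the range was -0.539 to 0.489. In MPTP against control, DESeq2 called 291 genes and 3 of the 32, limma voom with sample weights 8943 and 23, and leaving out 1 library 0 to 4577 and 0 to 11. Without control 1 and MPTP+PF4 2 the counts were 5629 and 14. Without control 2, control 3 and MPTP+PF4 2, the median of the 32 was -0.10. In MPTP+PF4 against MPTP, DESeq2 called 16 genes and voom 2. In MPTP+PF4 against control, DESeq2 called 10 genes, voom 9395 and 21 of the 32, and leaving out 1 library 0 to 4539 and 0 to 10. Without control 1 and MPTP+PF4 2 the counts were 5980 and 13. Without control 2, control 3 and MPTP+PF4 2, the median of the 32 was -0.02. The largest leave-one-out counts were those without control 1; the cause was not tested.

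Of 1824 log2 fold changes of the 32 genes under the alternative fits, 82 changed sign and 18 of these by more than 1 SE. Without control 2, control 3 and MPTP+PF4 2, MPTP against control gave Slc25a18 0.06, Pla2g7 -0.31, Htra1 0.07 and Slc39a12 -0.03. MPTP+PF4 against MPTP gave Agt -0.88 and Slc25a18 -0.69 (Agt -0.89 and Slc25a18 -0.71 without control 1 and MPTP+PF4 2). MPTP+PF4 against control gave Sox9 0.21, Glul 0.01, Ppp1r3c 0.10, Pla2g7 -0.12, Prodh 0.06, Htra1 0.29 and Bcan 0.03. Leaving out 1 library, Agt ranged from -0.88 to 1.49 and Slc25a18 from -0.69 to 0.61 in MPTP+PF4 against MPTP, and Sox9 from -0.26 to 0.18 in MPTP+PF4 against control. The cause of these reversals was not tested. The lowest count of the 32 genes in a library was 353, and the groups held 3 mice each. The other gene lists were read without control 2, control 3 and MPTP+PF4 2 as an alternative chosen after seeing the data.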
